A study of Dendrobium huoshanense with 6 samples.

Results

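In the orchid Dendrobium huoshanense, 71 abundant transcripts had levels far higher in cold-exposed seedlings than in seedlings under normal growth. They were chosen from 118758 features, that is, 16105 clusters of assembled contigs and 102653 unclustered contigs. A feature was taken if its lowest CPM (reads per 1000000 reads of the library) over the 3 cold libraries was at least 50 and at least 8 times its highest CPM over the 3 normal growth libraries. Of the members, 39 were clusters, holding 182 contigs, and 32 were unclustered contigs. The cold and normal growth values themselves chose the members, so the differences between these groups are given below as a description without a test.

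Messenger RNA was sequenced from whole seedlings of a medicinal orchid, with 3 libraries from the cold treatment and 3 from normal growth, called biological repeats in the labels. Each library was counted as 1 sample; the labels do not say how many plants it pooled, so the spread between libraries may be partly technical. The protocol speaks of annual plants and freezing stress, names culture at 4 °C with 11 h of light per day and collection at 0 and 7 d, and is the same text for both groups. If normal growth was the collection at 0 d and cold that at 7 d, the groups differ in age as well as in temperature, and time and cold cannot be told apart. No genotype, tissue other than whole seedling or temperature of the normal growth group is given. In whole seedlings, more RNA per cell and more cells of a type cannot be told apart.

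Plants that meet low, non-freezing temperatures adjust their transcript pool over hours to days, a process known as cold acclimation. Transcription factors of the CBF family are known to switch on cold-responsive genes in many flowering plants, and the products of such genes include dehydrins and other protective proteins, enzymes that make soluble sugars and proteins that change membrane lipids. The files give each contig an ID and do not pair it with a gene name, so no member could be assigned to any of these classes. For the same reason the whole-seedling label could not be checked against marker genes. The 2 IDs printed below are those of the member with the highest level in the cold and of the member with the largest separation between the groups, and the other members are named by their rank in mean cold level.

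The libraries held 15284397 to 17255112 estimated reads in the cold and 17683567 to 18085164 in normal growth. Of 35987 features with enough reads to test, edgeR's quasi-likelihood test called 18.5% higher in cold seedlings, with Benjamini-Hochberg adjusted values below 0.05. In simulated data this test made more false calls than its threshold allows, so the share called may be too high. This background of 6664 features changed when 1 library was left out. Without normal growth replicates 1, 2 and 3 in turn it was 3606 of 41368, 4476 of 41424 and 4686 of 41043. Without cold replicates 1, 2 and 3 in turn it was 4302 of 38752, 5058 of 38953 and 6944 of 40884. Such a run also has fewer libraries and another set of features tested, and these effects were not separated. All 71 members had enough reads, and all 71 were among those called, which their choice nearly fixes. Among the 3290 features with a lowest cold CPM of at least 50, the members made up 2.16%. Just inside the 8-fold limit the members had ratios of lowest cold to highest normal growth CPM of 8.08, 8.30 and 8.42, and just outside it stood features at 7.93, 7.81 and 7.57. At the other limit, the members with the lowest levels had a lowest cold CPM of 51.3, 51.5 and 53.5, and features that met the fold alone came up to 47.3, 46.7 and 43.4 CPM.

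**Figure D1:**
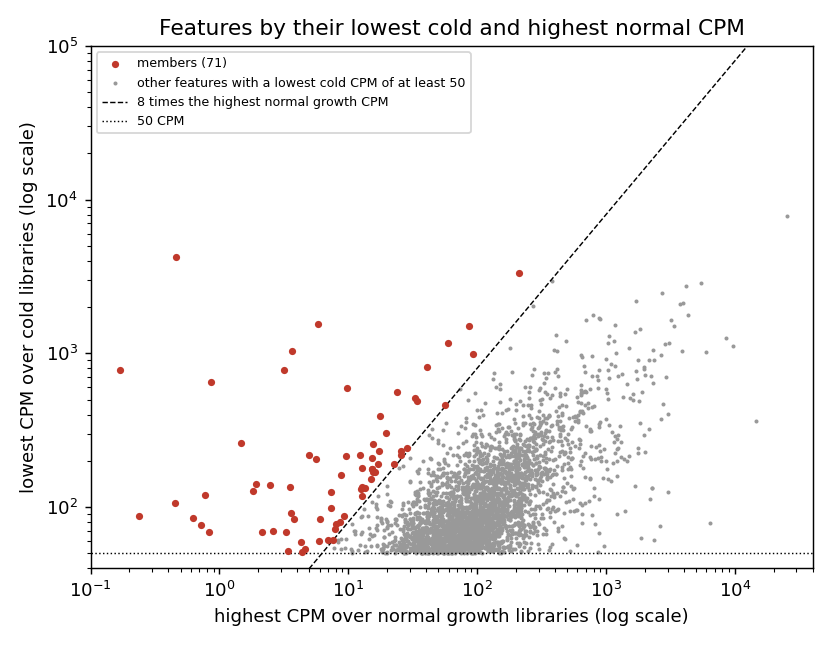
Lowest CPM over the 3 cold libraries (vertical axis, log scale) against the highest CPM over the 3 normal growth libraries (horizontal axis, log scale) for the 3290 features with a lowest cold CPM of at least 50. The 71 members (red) lie above the dashed line of 8 times, and 9 of them lie under 1 CPM in normal growth.

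Together the members took 4.01%, 3.60% and 4.39% of the reads in cold replicates 1, 2 and 3, against 0.107%, 0.0825% and 0.0888% in normal growth replicates 1, 2 and 3. The means were 4.00% ± 0.393 in the cold and 0.0929% ± 0.0129 in normal growth (SD, n = 3 each). The lowest cold library was far above the highest normal growth library, as the choice requires. Levels of different members are compared below in TPM (transcripts per 1000000), which corrects for contig length. Mean cold TPM ran from 14.0 to 6024 over the members, with a median of 248, and mean normal growth TPM from 0.0767 to 223, with a median of 6.55. The first 3 members held 36.3% of the summed mean cold TPM of all members, and the first 10 held 62.8%.

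In the ranking of all features by mean TPM, 3 members were among the first 10 in the cold, 9 among the first 50 and 32 among the first 500. None was among the first 500 in normal growth. Log2 fold changes of cold over normal growth (fitted by edgeR on counts) ran from 3.43 to 14.27 with a median of 4.98, and their SEs from 0.18 to 1.12. In 35 members the lowest cold CPM was at least 16 times the highest normal growth CPM, in 20 at least 32 times, in 15 at least 64 times and in 6 at least 256 times.

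**Figure D2:**
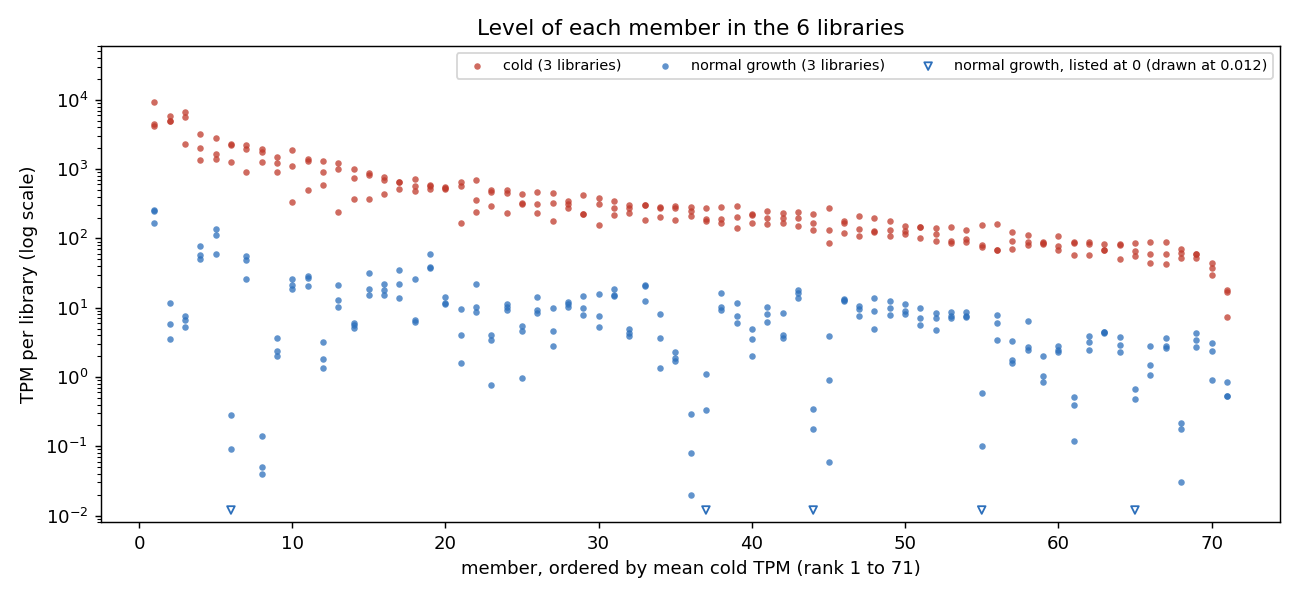
TPM of each of the 71 members in the 6 libraries (log scale), with members ordered by mean cold TPM; red points are cold libraries, blue points normal growth libraries, and open triangles mark values listed at 0. Every member has its 3 cold points above its 3 normal growth points, as the choice requires, and the gap is widest at ranks 6 and 8.

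The highest level in the cold belonged to CL3538, a cluster of 2 contigs of 1449 and 1362 bases. It had 4432, 4179.5 and 9461 TPM in cold replicates 1, 2 and 3, against 246, 166 and 258 TPM in normal growth replicates 1, 2 and 3. Cold replicate 3 held over 2 times the level of either other cold library. The groups did not overlap, as the choice of members by CPM requires. The log2 fold change was 4.65 ± 0.47 (SE, edgeR), and it was 4.02 ± 0.25 without cold replicate 3. CL3538 ranked 3 among all features by mean TPM in the cold and 601 in normal growth. Nearly all of its reads, 92.0% in the cold and 90.3% in normal growth, were assigned to the shorter contig.

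The cluster of rank 2 had 13 contigs, the longest of 3094 bases. It stood at 4926, 5929.7 and 5019.9 TPM in cold replicates 1, 2 and 3, against 5.86, 3.49 and 11.8 TPM in normal growth replicates 1, 2 and 3. The cold libraries lay close together, with a coefficient of variation (CV) of 11.7% in CPM, and the log2 fold change was 8.30 ± 0.27 (SE, edgeR). Part of its high TPM came from short contigs of 337 and 353 bases, which TPM weights upward, and its mean CPM was 1683 ± 197 in the cold and 4.95 ± 0.892 in normal growth (SD, n = 3 each).

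The cluster of rank 3, with 2 contigs of up to 873 bases, showed a wide spread in the cold. It had 5686, 2306 and 6578 TPM in cold replicates 1, 2 and 3, against 5.27, 7.65 and 6.74 TPM in normal growth replicates 1, 2 and 3. Cold replicate 2 was the lowest of the cold libraries and below 50% of either other. It was still far above every normal growth library, as the choice requires. Its log2 fold change was 9.42 ± 0.60 (SE, edgeR).

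Ranks 4 and 5 had over 50 TPM in every normal growth library. The unclustered contig of rank 4, of 1762 bases, had 2008, 3171 and 1373 TPM in cold replicates 1, 2 and 3, against 77.3, 58.0 and 50.7 TPM in normal growth replicates 1, 2 and 3. The cluster of rank 5, of 3 contigs, had 1639, 2845 and 1423 TPM in the cold libraries, against 111, 59.5 and 136 TPM in the normal growth libraries. Both were highest in cold replicate 2, the library in which ranks 1 and 3 were lowest. Their log2 fold changes were 4.98 ± 0.38 and 4.12 ± 0.41 (SE, edgeR).

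Ranks 7, 9 and 10 shared an order of the cold libraries, with replicate 3 highest and replicate 2 lowest. Rank 7, a cluster of 2 contigs, had 1980.2, 897 and 2243 TPM in cold replicates 1, 2 and 3, against 48.1, 55.6 and 26.0 TPM in normal growth replicates 1, 2 and 3. Rank 9, an unclustered contig of 1448 bases, had 1237, 917 and 1501 TPM in the cold libraries, against 2.38, 2.00 and 3.69 TPM in the normal growth libraries. Rank 10, a cluster of 9 contigs, had 1095, 336 and 1895 TPM in the cold libraries, against 25.9, 21.5 and 18.7 TPM in the normal growth libraries. In none of them did the groups overlap, as the choice of members by CPM requires. Their log2 fold changes were 5.21 ± 0.53 for rank 7, 8.70 ± 0.41 for rank 9 and 6.67 ± 0.84 for rank 10 (SE, edgeR).

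The members covered a wide range of levels in normal growth. At one end, 19 members had at least 10 CPM in every normal growth library, with log2 fold changes of 3.43 to 6.67 (edgeR). At the other, 9 members were under 1 CPM in every normal growth library, with log2 fold changes of 7.39 to 14.27 (edgeR). The other 43 lay between. Of the 9 near-silent members, 7 were unclustered contigs. In all normal growth libraries together they had 4 to 26 estimated reads each, and in single cold libraries they had 68.7 to 6202 CPM. No member was listed at 0 in all 3 normal growth libraries, 5 were listed at 0 in at least 1, and 1 member had no more than 3 reads in any of them. By counting error alone, a listed 0 leaves room for 3 reads, which is 0.166 to 0.170 CPM in the normal growth libraries. The fitted folds of these members thus rest on few reads in normal growth. How far the prior count of the fit moved them was not tested.

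The largest separation was that of Unigene4835_All, an unclustered contig of 5023 bases and the member of rank 8. It had 1739, 1974 and 1286 TPM in cold replicates 1, 2 and 3, against 0.0500, 0.0400 and 0.140 TPM in normal growth replicates 1, 2 and 3. In estimated reads this was 85141, 104582 and 73382 in the cold libraries, against 2.73, 2.15 and 8.19 in the normal growth libraries. Its log2 fold change was 14.27 ± 0.53 (SE, edgeR), and 13.88 to 14.96 when any 1 library was left out. By reads it was the most abundant member, at 5342 ± 995 CPM in the cold and 0.245 ± 0.189 CPM in normal growth (SD, n = 3 each), and it alone carried 13.4% of the summed mean cold CPM of the members. In the ranking of all features by mean TPM it stood at 33 in the cold and at 81554 in normal growth.

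Ranks 6 and 36 were near-silent in normal growth as well. Rank 6, a cluster of 2 contigs with 98.8% of its cold reads on the contig of 1058 bases, had 2227, 2312 and 1276 TPM in cold replicates 1, 2 and 3. In normal growth replicates 1, 2 and 3 it was listed at 0, 1 and 3 reads. The unclustered contig of rank 36, of 4675 bases, had 246, 284 and 213 TPM in the cold libraries, against 0.0200, 0.290 and 0.0800 TPM in the normal growth libraries. Like Unigene4835_All, rank 36 was highest in cold replicate 2 and lowest in cold replicate 3. The other near-silent members, at ranks 37, 44, 55, 61, 65 and 68, had longest contigs of 1162 to 3233 bases.

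At the low end of the folds, rank 46 had the smallest log2 fold change, 3.43 ± 0.19 (SE, edgeR), and ranks 43 and 19 followed at 3.48 ± 0.22 and 3.52 ± 0.27 (SE, edgeR). The lowest level was that of rank 71, an unclustered contig of 12601 bases. It had 17.9, 16.9 and 7.27 TPM in cold replicates 1, 2 and 3, against 0.54, 0.54 and 0.85 TPM in normal growth replicates 1, 2 and 3. In CPM, where a long contig collects more reads at the same TPM, its cold mean was 114 ± 46.1 and its normal growth mean 5.32 ± 1.41 (SD, n = 3 each).

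Levels in the cold were less even between libraries for the members than for other abundant features. The median CV over the 3 cold libraries was 25.2% for the members and 16.6% for the 3219 other features with a lowest cold CPM of at least 50. The highest cold CPM was more than 2 times the lowest in 22 of the 71 members (31.0%), and in 350 of the other features (10.9%). The median of the mean cold CPM was 233 for the members and 113 for the other features, and spread was not compared at matched depth. For the 56 features that met the mirrored rule (high in normal growth, low in the cold), the median CV over the normal growth libraries, where they were high, was 22.9%, and 16 (28.6%) were over 2-fold apart there, a share near that of the members. These are descriptions over features that share libraries, and no test was made of them.

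**Figure D3:**
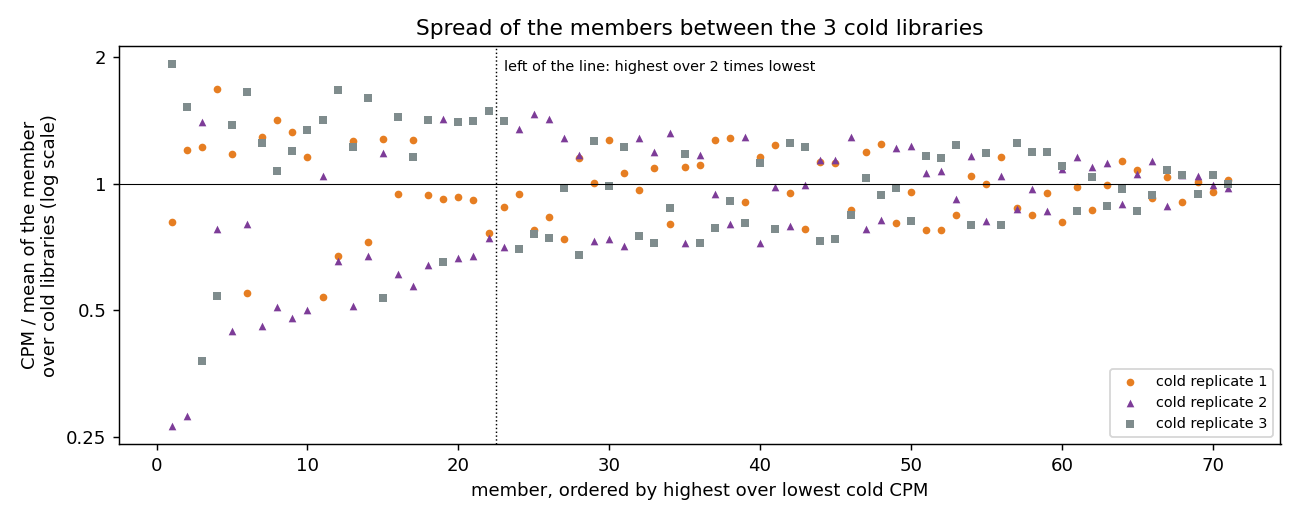
CPM in each cold library divided by the mean of the member over the 3 cold libraries (log scale), with members ordered by the ratio of their highest to their lowest cold CPM. Left of the dotted line are the 22 members with a ratio over 2, of which 16 have cold replicate 2 (triangles) lowest.

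Most of the uneven members had the same lowest library. In 16 of the 22, cold replicate 2 was lowest, at 19.4% to 65.9% of the mean of cold replicates 1 and 3 (median 44.2%). Of these 16, 11 were highest in cold replicate 3 and 5 in cold replicate 1, and 9 of them were among the 15 members with the highest cold TPM. Cold replicate 2 was also the commonest lowest library of the uneven features among the other abundant ones, in 161 of 350 (46.0%), against 72.7% of the uneven members. Members that were both over 2-fold uneven and lowest in cold replicate 2 made up 22.5% of all members, against 5.00% of the other abundant features. This joint share also reflects that more of the members were uneven at all. The 16 took 1.55%, 0.835% and 2.25% of the reads in cold replicates 1, 2 and 3, while the other 55 members took 2.46%, 2.77% and 2.14%. Since the 16 were picked for a low cold replicate 2, their low sum in that library follows from the choice, which also tilts the other 55 towards it. Without cold replicate 2, 8 members (11.3%) and 3.42% of the other abundant features were over 2-fold apart, and without cold replicate 3, 10 members (14.1%) and 4.82% of the others. Without cold replicate 1 it was 20 members (28.2%) and 7.61% of the others. Leaving out a library can only lower these shares.

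The strongest case was rank 10, with 1188, 389.7 and 2826 CPM in cold replicates 1, 2 and 3, a highest to lowest ratio of 7.25. Rank 13, a cluster of 4 contigs, followed with 563, 132 and 714 CPM in the cold libraries, against 12.5, 5.70 and 7.27 CPM in the normal growth libraries. Of the 6 other uneven members, 4 were lowest in cold replicate 3 and 2 in cold replicate 1. Rank 21, an unclustered contig, had 520.4, 595 and 161 CPM in cold replicates 1, 2 and 3, against 1.54, 8.78 and 3.68 CPM in normal growth replicates 1, 2 and 3. Rank 45, also unclustered, had 261, 121 and 83.8 CPM in the cold libraries, against 0.0565, 3.76 and 0.846 CPM in the normal growth libraries, and had the largest SE of all members, with a log2 fold change of 6.50 ± 1.12 (SE, edgeR).

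At the other extreme, rank 20, an unclustered contig of 736 bases, was almost level within each group. It had 544, 533 and 511 TPM in cold replicates 1, 2 and 3, against 11.3, 11.6 and 14.2 TPM in normal growth replicates 1, 2 and 3, with a CV of 2.23% in cold CPM and a log2 fold change of 5.29 ± 0.18 (SE, edgeR). Rank 59, a cluster of 5 contigs, had 82.9, 88.6 and 86.0 TPM in the cold libraries, against 1.02, 2.00 and 0.860 TPM in the normal growth libraries. Rank 28, a cluster of 7 contigs, had 318, 341 and 274 TPM in the cold libraries, against 11.5, 12.1 and 10.1 TPM in the normal growth libraries. Over all members, 32 were lowest in cold replicate 2 (45.1%, against 37.4% of the other abundant features), 24 in cold replicate 3 and 15 in cold replicate 1.

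Among the normal growth libraries, replicate 1 was the highest library for many members. Of the 66 members with reads in every normal growth library, 31 (47.0%) were highest in replicate 1, against 31.1% of the other abundant features. Of the 16 members low in cold replicate 2, 9 were highest in normal growth replicate 1, and of the other 50 members with reads in every normal growth library 22 were. The median CV over the normal growth libraries was 30.0% for these 66 members and 12.3% for the other abundant features, whose levels there were higher (median of the mean CPM 5.69 for all members and 90.9 for the others).

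Members were more often unclustered contigs, and shorter, than other abundant features. Unclustered contigs made up 45.1% of the members and 20.5% of the other features with a lowest cold CPM of at least 50, and the clusters had a median of 3 contigs in the members and 5 in the others. The longest contig of a feature had a median of 1782 bases in the members and 2528 in the others. For the mirrored set the same values were 33.9%, 3 contigs and 1756.5 bases. The share of unclustered contigs was 9 of the 15 members with a separation of at least 64 times and 13 of the 36 with a separation under 16 times. Longest contigs of members ran from 736 to 12601 bases, with 8 under 1000 bases and 10 of at least 4000 bases.

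The choice of members used cluster totals and not how a cluster divides its reads over its contigs, so this division was tested. The test is still not independent of the choice. Both use the same counts, and a contig could be kept for the test through its cold reads alone. For example, the contig of 498 bases in the cluster of rank 6 was kept at 0 CPM in every normal growth library. Contigs of a cluster can be alleles, splice forms, close relatives or fragments of a gene, and which of these they are is not given. Of the 182 contigs in member clusters, 177 had a higher mean CPM in the cold, 2 had a lower one and 3 had no reads. On their own, 44 of these contigs met the rule, in 32 of the 39 clusters. The choice by cluster totals favours contigs that are higher in the cold, and these counts were not compared with contigs of other clusters. The leading contig took 23.8% to 99.98% of the cold reads of its cluster, with a median of 66.9%. It took over 90% in 9 clusters and under 50% in 8. It was the same contig in all 3 cold libraries in 27 of the 39 clusters.

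Contig usage differed between cold and normal growth in 7 of the 37 member clusters with at least 2 contigs kept (edgeR diffSpliceDGE, adjusted p under 0.05 over all clusters tested), or 18.9%, where 23.1% of all 10253 clusters tested were called. Member clusters had fewer reads in normal growth, with a median of 453 over the 3 libraries, against 1503 for all clusters tested. Among other clusters with normal growth reads in the middle range of the members (222 to 852), 13.8% of 2479 were called. The share of members is thus near the background. In simulated data this usage test made false calls more often than its threshold allows, so the adjusted p-values of the 7 calls are likely too small. Another contig led in the cold than in normal growth in 10 of the 37 member clusters with at least 30 reads in each group (27.0%), and in 28.0% of all such clusters.

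**Figure D4:**
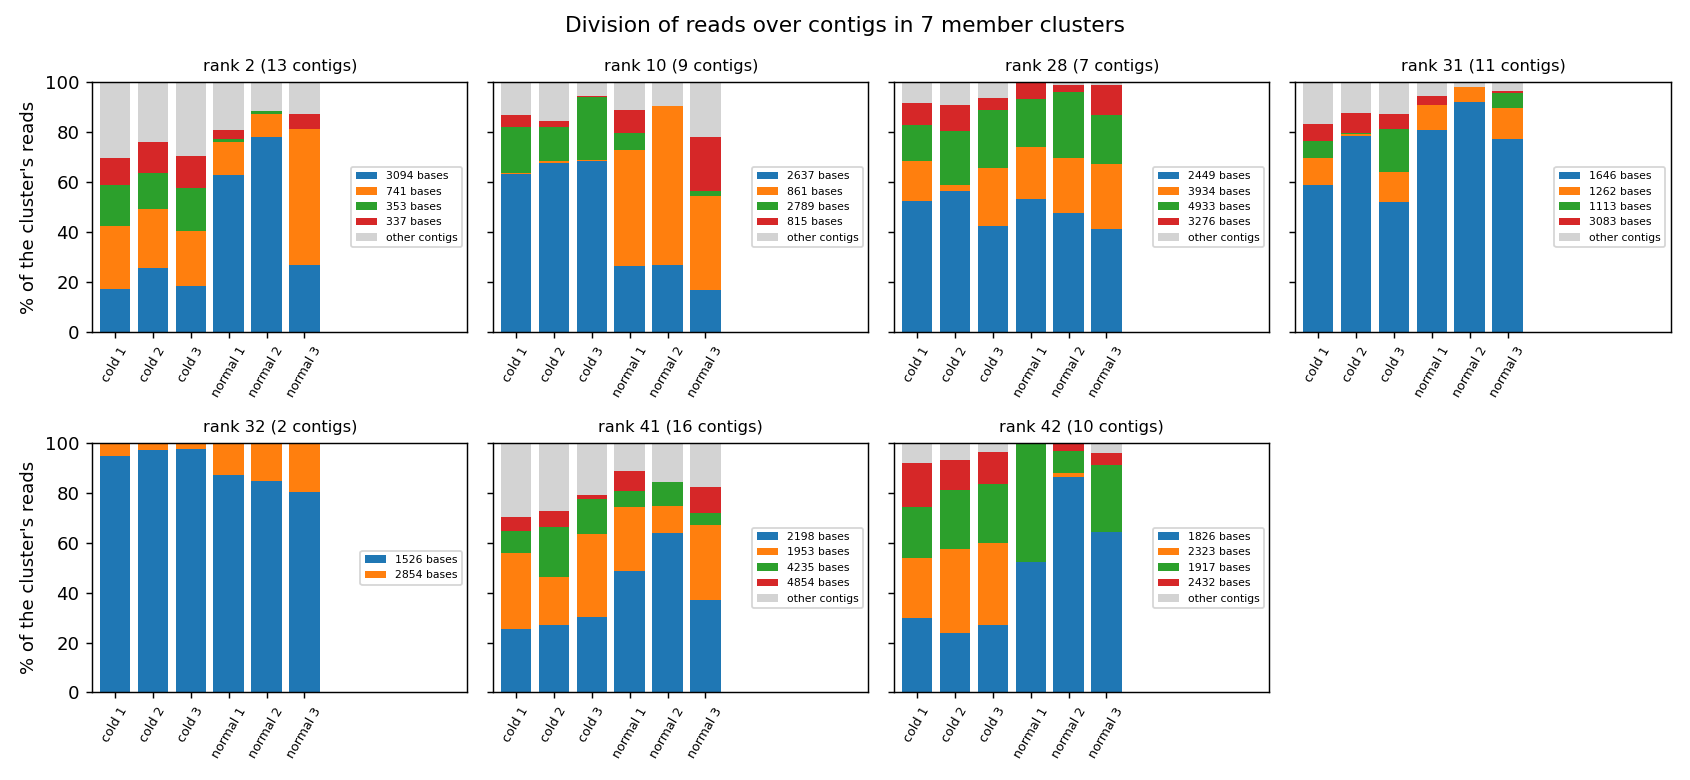
Percent of the reads of a cluster assigned to each contig, in the 3 cold and the 3 normal growth libraries, for the 7 member clusters with a difference in contig usage; colours mark the 4 contigs with the largest shares, named by length, and grey the rest. In rank 10 a contig of 2637 bases leads in every cold library and one of 861 bases in every normal growth library.

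The clearest difference was in rank 10 (adjusted p = 0.00015, edgeR diffSpliceDGE). Its contig of 2637 bases took 63.3%, 67.7% and 68.6% of the cluster's reads in cold replicates 1, 2 and 3, against 26.5%, 26.8% and 16.6% in normal growth replicates 1, 2 and 3. Its contig of 861 bases took 0.342%, 0.794% and 0.157% in the cold libraries, against 46.2%, 63.7% and 37.6% in the normal growth libraries. In CPM the contig of 2637 bases averaged 985 in the cold and 3.28 in normal growth, while that of 861 bases averaged 3.86 in the cold and 6.73 in normal growth. The contig of 861 bases had 4.06, 3.09 and 4.43 CPM in the cold libraries, against 8.20, 8.06 and 3.94 CPM in the normal growth libraries. The groups thus overlapped in its CPM. This contig and one of 948 bases in the same cluster, at 0 CPM in the cold and 0.804 CPM in normal growth, were the 2 contigs of all member clusters with a lower mean in the cold. The other contigs of the cluster had higher means in the cold.

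Rank 42, a cluster of 10 contigs, also divided its reads in another way in the cold (adjusted p = 0.00030, edgeR diffSpliceDGE). Its contig of 2323 bases took 24.0%, 33.7% and 33.2% of the reads in cold replicates 1, 2 and 3, against 0%, 1.72% and 0% in normal growth replicates 1, 2 and 3. The contig of 1826 bases took 30.0%, 23.7% and 26.9% in the cold libraries, against 52.4%, 86.3% and 64.3% in the normal growth libraries. The groups did not overlap for either contig. The shares without cold rest on small counts, as the whole cluster held 78, 173 and 81 reads under normal growth. The 1.72% for the contig of 2323 bases was 0.164 CPM, in a library where 3 reads make 0.166 CPM.

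Rank 2 differed as well (adjusted p = 0.00053, edgeR diffSpliceDGE). Its longest contig, of 3094 bases, took 17.0%, 25.3% and 18.2% of the reads in cold replicates 1, 2 and 3, against 62.7%, 77.9% and 26.9% in normal growth replicates 1, 2 and 3. The contig of 741 bases took 25.5%, 23.9% and 22.1% in the cold libraries, against 13.5%, 9.38% and 54.5% in the normal growth libraries. For it the groups overlapped, and it led over the longest contig in normal growth replicate 3. The contig of 353 bases took 16.4%, 14.6% and 17.3% in the cold libraries, against 1.12%, 1.38% and 0% in the normal growth libraries. Few counts lay behind the latter shares, since the whole cluster held only 88.9, 72.7 and 103 reads there. The contig of 353 bases stood at 0.0565, 0.0553 and 0 CPM in these libraries, where 3 reads make 0.166 to 0.170 CPM. The calls for ranks 2, 10 and 42 held in every alternative run, including each fit without 1 library.

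The other differences were smaller or less stable. Rank 32, a cluster of 2 contigs, had 94.8%, 97.3% and 97.5% of its reads on the contig of 1526 bases in cold replicates 1, 2 and 3, against 87.0%, 84.6% and 80.3% in normal growth replicates 1, 2 and 3 (adjusted p = 0.010, edgeR diffSpliceDGE). This call was lost without cold replicate 3 (adjusted p = 0.054, edgeR) and with the replicate number as a block (adjusted p = 0.070, edgeR). Rank 28 (adjusted p = 0.0018, edgeR diffSpliceDGE) was lost without normal growth replicate 1 (adjusted p = 0.054, edgeR). Rank 31 (adjusted p = 0.010, edgeR) was lost when cold replicate 1 (adjusted p = 0.077), normal growth replicate 1 (0.055) or normal growth replicate 2 (0.066) was left out. Rank 41 (adjusted p = 0.035, edgeR) kept its call without cold replicate 1 and lost it without any other single library (adjusted p 0.19 to 0.70, edgeR) and with the replicate block (adjusted p = 0.19, edgeR). With limma on voom values the calls for ranks 28, 31 and 41 were lost (adjusted p 0.12 to 0.38, limma), and with the Simes combination those for ranks 31, 32 and 41 (adjusted p 0.079 to 0.19, edgeR). Of the contig values in member clusters, 90.5% were not whole numbers in the cold, and of those of the unclustered members 78.1%. Reads shared between contigs were thus divided by estimate, also outside clusters. How far this moved the usage values, or the levels of the members, was not tested.

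Over all member clusters together, the longest contig of each cluster took 41.6%, 39.2% and 30.7% of the reads in cold replicates 1, 2 and 3, against 24.4%, 26.3% and 26.0% in normal growth replicates 1, 2 and 3. With every cluster given the same weight, the median share on the longest contig was 16.6%, 15.5% and 14.6% in the cold libraries, against 13.1%, 18.3% and 16.3% in the normal growth libraries, and the groups overlapped. The longest contig was the leading one in the cold in 13 of the 39 clusters.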

How the data were processed

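Per the labels, messenger RNA from whole seedlings was enriched with oligo(dT) beads and copied with random hexamers. The submitters' processing notes list Bowtie2 2.2.5, RSEM 1.2.8 and DESeq2 without their roles; which assembler was run is not given here. Each library, per the file headers, has an expected count, TPM and FPKM for each of 181669 contigs; the deposited expected counts are estimates in which shared reads are divided, the TPM deposited by the authors sum to about 1000000, and the FPKM deposited by the authors were not used here.

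Expected counts were summed over contigs that share an ID prefix, a reading of the IDs, and divided by the column total. Sums, and contigs for usage, were rounded for edgeR 4.0.16, run under R 4.3.3 (filterByExpr at its defaults of 10 reads per library and 15 in total; TMM scaling; robust quasi-likelihood fit of cold over normal growth; Benjamini-Hochberg). The SE is the log2 fold change divided by the square root of F. Contig usage was tested with diffSpliceDGE over clusters with at least 2 contigs kept. Both fits were tested on simulated data, in which both made more false calls than the threshold allows, the usage test more so. Alternatives were DESeq2 1.42.0, limma 3.58.1, other scalings, filters and limits, a replicate block and leaving out each library. The members and lists were chosen with earlier results of these data known. The 2 IDs printed are the member with the highest mean cold TPM and that with the largest ratio of lowest cold to highest normal growth CPM, taken as no less than 3 reads; the ranks described in full were also fixed as 1 to 10, and the further ranks named were chosen by the rule on near-silent members, limits and usage calls or after their values were seen. Depth was 15284397 to 18085164 reads; floors do not cover PCR copies, which could not be marked without molecular identifiers.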

Additional observations from a re-analysis of the deposited data

How the results depend on the processing

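The 71 members were 159 at 4-fold and 35 at 16-fold, and within 1.5 times under the other limits, scalings and TPM run; leaving out 1 library, which can only add features, gave 76 to 98. TMM scaling kept 66 of the 71 and DESeq2 size factors 67. The members' 4.00% of cold reads were 4.45% in TPM and 3.51% without CL3538 (3.81% to 4.20% without 1 cold library). Cluster calls, 12245 in all, were 6319 with the replicate block (3219 higher in the cold, against 6664) and 6997 to 12212 without 1 library, lowest without normal growth replicate 1 (6997) and cold replicate 1 (7793). Usage calls, 2366 in all and 7 in members, were 1437 and 4 with the Simes combination, 1388 and 5 with the replicate block, 2660 and 4 with limma on voom values, and 1883 to 2212 and 5 to 7 without 1 library. The excess of 11.6 percentage points on the longest contigs in the cold was 9.38 to 14.8 without 1 library and 2.16 for the contig with the most reads. The median CV between cold libraries was 25.2%, and 19.3% to 30.1% without 1 cold library. The share of members over 2-fold apart was 31.0%, and 28.2%, 11.3% and 14.1% without cold replicate 1, 2 and 3; these shares, and the order of cold libraries under other scalings (29 to 31 members lowest in cold replicate 2, against 32), were chosen after seeing the data. Log2 fold changes of CL3538 (4.02 to 4.90) and Unigene4835_All (13.88 to 14.96) are ranges over all settings run; their direction is fixed by the choice of the members. With library size alone in place of TMM, the all-feature median log2 fold change was 0.19, against 0.07. Same-numbered libraries deviated together at -0.092, -0.0088 and -0.13 (correlation over features). Differently numbered pairs ran from -0.090 (cold replicate 2 with normal growth replicate 1) to 0.18 (cold replicate 3 with normal growth replicate 1). None of the same-numbered values was positive. Deviations cancel within each group, which ties all these values together, so they say little about shared deviation by replicate number. Whether same-numbered libraries were handled together cannot be decided from 3 libraries per group. Without a filter on low counts, 70 of the 71 members were called. Beyond what a setting fixes by its construction, the cause of these changes was not tested.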
